A study of Mus musculus with 230 samples.

Results

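The 10 genes described here write, maintain, oxidise or remove DNA methylation in the mouse: Dnmt1, Dnmt3a, Dnmt3b, Dnmt3l, Uhrf1, Tet1, Tet2, Tet3, Tdg and Apobec3. The rule lists them by name and sets no threshold on a value, though it was written with earlier results of these data known. Each gene has 1 row among the 53278 genes of the deposited count table. The study picked sensory neurons by hand from dissociated dorsal root ganglia (the clusters of sensory nerve cell bodies beside the spinal cord) at the levels L4 and L5. The animals came from a cross of the strains C57BL/6 and CAST/Ei, and the neurons were taken with the sciatic nerve either intact or injured. In low-input libraries, which start from little material, each condition was sampled at 1, 8 and 12 months of age with 3 libraries per group, 18 in all. In single-cell libraries, the cytoplasm of 1 neuron was sequenced by SMART-seq2, a full-length cDNA method, while its nucleus went to bisulfite sequencing. There were 18 intact and 21 injured cells at 1 month, and 8 intact and 22 injured cells at 1 year, of which 1 injured cell held no counts. The time between injury and sampling, the number of neurons in a low-input library and the animals behind each library are not given in the sources used here. Since nothing says that libraries of a group came from separate animals, p-values measure only the spread between these libraries, which may be technical.

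In mammalian DNA, methyl groups are placed on cytosine, mostly where it is followed by guanine (a CpG). DNMT3A and DNMT3B add new marks, DNMT3L assists them without being an active enzyme itself, and DNMT1 copies marks to the new strand after replication, guided to it by UHRF1. TET1, TET2 and TET3 oxidise methylcytosine in steps, and TDG cuts out the most oxidised forms so that base excision repair can restore plain cytosine. Neurons no longer divide, yet they continue to make DNMT1 and DNMT3A, and oxidised methylcytosine is abundant in nervous tissue. APOBEC3 is a cytidine deaminase best known for restricting retroviruses.

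The loci are given on mm10, as in the deposited table, with identifiers matched by symbol. Tet3 (ENSMUSG00000034832.15) lies on the minus strand of chromosome 6 from 83362373 to 83459084, and Dnmt1 (ENSMUSG00000004099.16) on the minus strand of chromosome 9 from 20907209 to 20959888. Dnmt3a (ENSMUSG00000020661.15) lies on the plus strand of chromosome 12 from 3806007 to 3914443, and Tdg (ENSMUSG00000034674.18) on the plus strand of chromosome 10 from 82629828 to 82650799. The exons of Tet3, Tet2 and Dnmt3a span 16.7, 16.9 and 16.6 kb, against 7.38 kb for Dnmt1 and 5.37 kb for Tdg, so levels are compared between genes only after division by exon length. Exons of 5 members overlap those of a gene on the other strand, Dnmt3a with Dnmt3aos over 133 bases, Tdg with Glt8d2 over 367, Apobec3 with Cbx7 over 100, Dnmt3l with Aire over 67 and Tet2 with Gm42567 over 43. Reads of the members and of these partners cannot be told apart there, since the sources used here do not say that counting used strand.

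Because these genes act on CpGs, the 250 bases upstream of their RefSeq start sites (GRCm38.p6) were read for CpGs. All 10 members matched, with 18 windows between them. The windows of Tet3, which changed with injury, of Dnmt1, and of Tdg, which holds the only cyclic AMP response element among the members, are printed 5′ to 3′ on the gene's own strand, with each CpG in capitals.
Tet3, chr6:83441679-83441928, minus strand: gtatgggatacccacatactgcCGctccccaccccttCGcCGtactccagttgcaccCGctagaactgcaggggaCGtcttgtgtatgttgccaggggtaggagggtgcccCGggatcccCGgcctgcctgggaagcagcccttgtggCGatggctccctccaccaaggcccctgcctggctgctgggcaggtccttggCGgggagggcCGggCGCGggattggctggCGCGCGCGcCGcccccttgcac
Dnmt1, chr9:20952980-20953229, minus strand: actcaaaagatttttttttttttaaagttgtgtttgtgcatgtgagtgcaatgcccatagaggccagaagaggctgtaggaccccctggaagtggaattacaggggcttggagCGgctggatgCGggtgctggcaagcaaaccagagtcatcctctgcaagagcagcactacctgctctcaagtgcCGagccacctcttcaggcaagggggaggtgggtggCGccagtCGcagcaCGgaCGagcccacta
Tdg, chr10:82629588-82629837, plus strand: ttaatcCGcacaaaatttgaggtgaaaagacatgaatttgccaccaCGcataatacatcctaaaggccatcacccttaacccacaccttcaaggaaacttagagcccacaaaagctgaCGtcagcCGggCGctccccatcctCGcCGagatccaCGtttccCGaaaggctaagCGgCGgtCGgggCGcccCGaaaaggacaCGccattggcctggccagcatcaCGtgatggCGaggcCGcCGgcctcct

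The Tet3 window holds 17 CpGs, the printed Dnmt1 window 7 and the Tdg window 19, against a median of 6 over all 32851 windows of the table, and 23.5% of all windows hold at least as many as that of Tet3. Dnmt1 has 3 windows, with 26, 7 and 2 CpGs, and the one with 26 was not printed because it holds exon sequence of the deposited gene model. Tet2 had the most among the members, with 51 CpGs. The printed Tet3 and Dnmt1 windows lie inside the longer gene models of the deposited table, outside their exons, while the Tdg window ends 10 bases into its first exon. Each window was also searched on both strands for the AP-1 motif TGANTCA, bound by injury-induced factors such as Jun, and for the cyclic AMP response element TGACGTCA, neither of which contains the other. AP-1 letters stood in 0 of the 18 member windows and in 6.75% of all windows, and the response element in 1 of 18, that of Tdg, and in 1.55% of all windows. A match of letters is a description of the window only.

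The low-input libraries held 7531967 to 19443627 counts outside spike-ins, of which 1 feature, CT010467.1, took 29.4 to 93.8%. Its share was higher in intact than in injured libraries at each age (at 1 month 40.4 to 45.3% against 35.7 to 39.8%, at 8 months 65.7 to 68.2% against 41.6 to 59.7%, and at 12 months 64.2 to 93.8% against 29.4 to 39.04%). The second intact 12-month library stood apart, with 770328 counts outside that feature and 40.5% of these mitochondrial, against at most 3.55% in the others. All 6 libraries of 12 months held 0 counts of Y-linked genes and the 12 libraries of 1 and 8 months held 149 to 725, so age and the sex of the animals cannot be told apart between 12 months and the other ages. The 12 markers of sensory neurons summed to 7800 to 24240 CPM (reads of a gene scaled to the TMM-adjusted total of its library) in every library. The 8 markers of nerve injury, such as Atf3 and Sprr1a, summed to 62.99 to 664 CPM in intact and 1056 to 3767 CPM in injured libraries. Immune cell markers summed to 32.5 CPM at most. The 8 markers of Schwann cells summed to 569 to 2043 CPM in intact and 556 to 713 CPM in injured libraries.

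Among writers and erasers, the genes for the maintenance enzyme and for the excising glycosylase had the highest levels per length in low-input libraries. Over the 18 libraries, the median was 1.41 CPM per kb for Tdg, 1.121 for Dnmt1, 0.610 for Tet3, 0.266 for Dnmt3a, 0.136 for Tet2 and 0.115 for Tet1. The ranges of neighbours in this order overlapped, with Dnmt1 between 0 and 3.502 CPM per kb and Tet3 between 0.144 and 1.59. Dnmt3b, Dnmt3l, Uhrf1 and Apobec3 were nearly or wholly without reads, and did not pass the filter on low counts. The other 6 members were among the 14212 genes tested. In bulk libraries of this kind, fewer cells that make a transcript and less of it per cell cannot be told apart.

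Across ages, Tet3 rose after injury, to 2.51 times its intact level, while none of the other 5 tested members passed the test. The question here was whether the genes of the methylation machinery themselves change in injured neurons. Differences were tested with edgeR's quasi-likelihood test over all genes with Benjamini-Hochberg adjustment, a gene being called at an adjusted p under 0.05. In the injury difference averaged over the 3 ages, 6.18% of all genes tested were called, and 1 of the 6 tested members was.

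**Figure D1:**
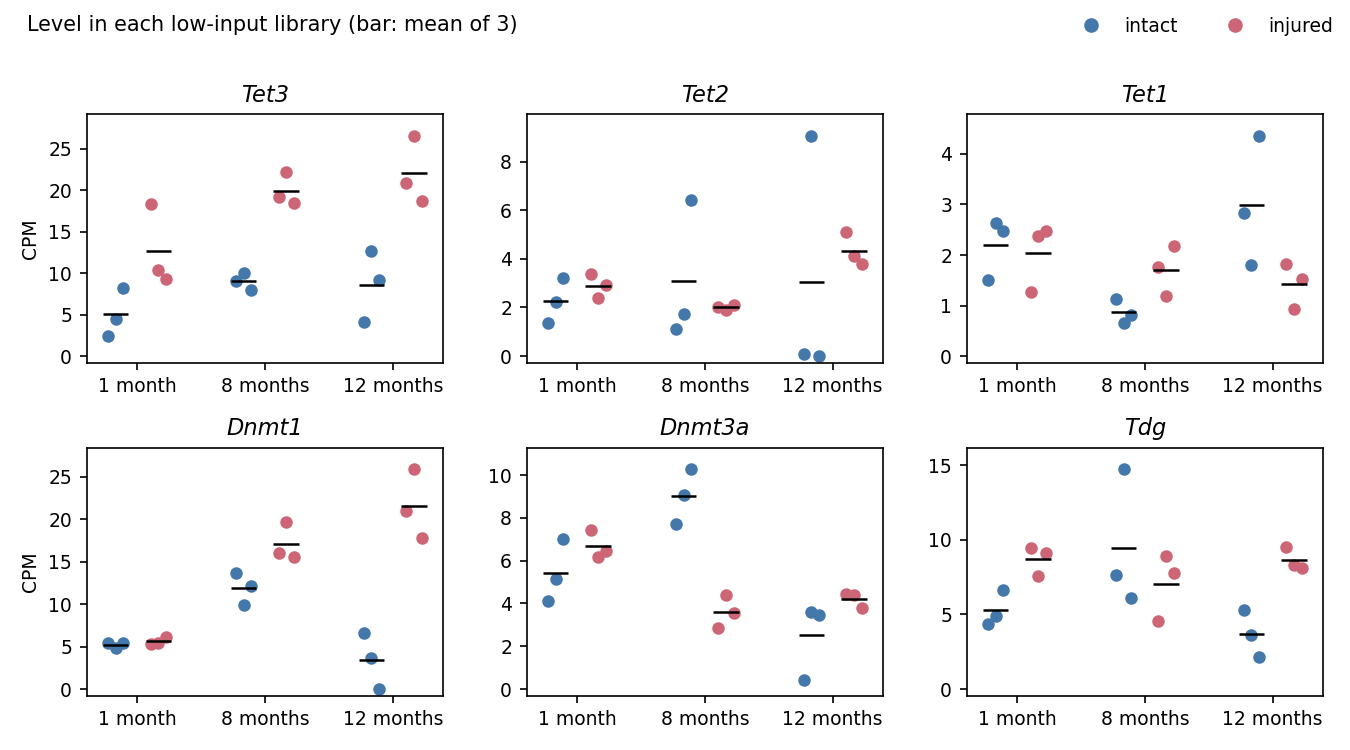
Level of 6 genes (vertical axis, CPM) in each low-input library at 1, 8 and 12 months, with a point per library, intact in blue and injured in red, and the mean of 3 as a bar. For Tet3 the injured points lie above all intact points of the same age, with injured means of 12.7, 19.9 and 22.04 CPM.

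Tet3, the TET gene with the highest median level per length, was measured at 2.40, 4.48 and 8.19 CPM in the 3 intact 1-month libraries and at 18.4, 10.3 and 9.28 CPM in the injured ones. At 8 months the intact libraries held 9.06, 10.1 and 7.97 CPM and the injured libraries 19.1, 22.2 and 18.4 CPM. At 12 months the intact libraries held 4.11, 12.6 and 9.13 CPM and the injured libraries 20.9, 26.5 and 18.7 CPM. Every injured library was above every intact library of its age, which 1.83% of the genes tested did at all 3 ages. The intact value of 12.6 CPM rests on 7 counts in the library that stood apart.

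The averaged difference of Tet3 was 1.33 ± 0.26 (log2, SE), with a 95% interval of 0.79 to 1.87 and an adjusted p of 0.00451 by edgeR, and it ranked 236 among all genes by p. Over 28 alternative analyses the adjusted p of this difference ranged from 8e-06 to 0.166. The call was lost when the share of CT010467.1 was a covariate (log2 2.15, adjusted p = 0.166) and when only 1 and 8 months were fitted (log2 1.23, adjusted p = 0.0661). By age, the differences were 1.33 at 1 month, 1.14 at 8 months and 1.51 at 12 months, close to each other, and with 6 libraries each none passed the test across all genes (adjusted p by edgeR of 0.533, 0.259 and 0.0927). Without the second intact 12-month library the 12-month difference was 1.77 (adjusted p = 0.0385). The joint test of whether the difference varied with age gave an adjusted p of 1 for Tet3.

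By group means, Tet3 was lowest in intact neurons at 1 month (5.02 ± 2.93 CPM, SD, n = 3), followed by intact at 12 months (8.63 ± 4.29) and at 8 months (9.03 ± 1.04). Injured neurons followed, with 12.7 ± 4.99 at 1 month, 19.9 ± 1.97 at 8 months and 22.04 ± 4.0 at 12 months. The intact groups of 8 and 12 months and the injured groups of 8 and 12 months overlapped and did not differ beyond their spread. The injured group of 1 month also overlapped the intact groups of 8 and 12 months. The intact group of 1 month overlapped both of these intact groups as well.

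Markers of satellite glia, the cells that wrap sensory neuron bodies, moved with injury too: 7 of 7 had a positive averaged difference, and 1 of them, Sostdc1, was called. Their sum was 8.17 to 553 CPM in intact and 1217 to 1958 CPM in injured libraries at 1 month, and 25.1 to 488 CPM against 304 to 640 CPM at 8 months. At 12 months the sums overlapped, with 6.33 to 683 CPM intact and 1.76 to 326 CPM injured. Glial sums of 8.17, 189 and 553 CPM went with 2.40, 4.48 and 8.19 CPM of Tet3 in intact neurons at 1 month. In injured ones of that age, sums of 1217, 1958 and 1924 CPM went with 18.4, 10.3 and 9.28 CPM. At 8 months, intact sums of 25.1, 488 and 64.6 CPM went with 9.06, 10.1 and 7.97 CPM. Injured sums of 304, 632 and 640 CPM went with 19.1, 22.2 and 18.4 CPM. The injured 12-month libraries with glial sums of 1.76, 272 and 326 CPM held 20.9, 18.7 and 26.5 CPM of Tet3. The intact ones of that age with glial sums of 6.33, 7.61 and 683 CPM held 4.11, 9.13 and 12.6 CPM. Fibroblast markers summed to 4.27 to 7.87 CPM in intact and 31.9 to 62.2 CPM in injured libraries at 1 month. At 8 months they summed to 2.59 to 16.7 CPM against 18.6 to 53.7 CPM. At 12 months the intact sums were 15.5, 74.1 and 0 CPM and the injured sums 27.4 to 47.3 CPM. The value of 74.1 CPM is from the library that stood apart. Of the 4 fibroblast markers tested, 1, Col1a2, was called. The part of these cells in the Tet3 result was not tested, and that of the share of CT010467.1 not beyond its fits as a covariate.

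**Figure D2:**
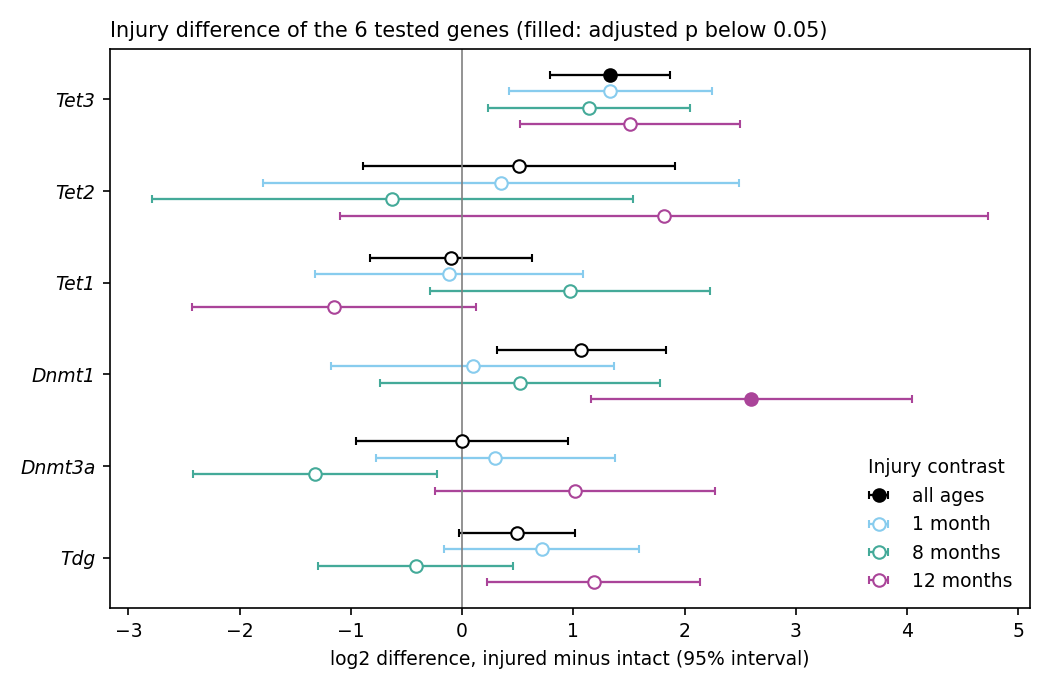
Injury difference (horizontal axis, log2 injured over intact) of the 6 tested genes, averaged over ages and at 1, 8 and 12 months, with 95% intervals from edgeR. The Tet3 averages lie to the right of 0, from 0.79 to 1.87, while Dnmt3a lies left of 0 at 8 months (-1.32) and right of it at 12 months (1.02).

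Tet2 and Tet1, the other TET genes, had lower levels and no called difference. Tet2 was at 1.35, 2.22 and 3.23 CPM in intact and 3.39, 2.37 and 2.92 CPM in injured neurons at 1 month. At 8 months it was at 1.13, 1.73 and 6.41 CPM intact and 2.04, 1.87 and 2.12 CPM injured. At 12 months the intact libraries scattered most, with 0.0856, 9.03 and 0 CPM, which are 1, 5 and 0 counts, while the injured libraries held 5.09, 4.10 and 3.79 CPM. The groups overlapped at every age, and the averaged difference was 0.51 ± 0.67 (adjusted p = 0.728, edgeR). Leaving out the second intact 12-month library, with its 5 counts, gave 1.91 and an adjusted p of 0.0160 (edgeR). The intact libraries of that age that remained held 1 and 0 counts, so the result with and without that library rests on few counts. Tet2 was called in 2 of 28 alternatives.

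Tet1 was at 1.5, 2.63 and 2.48 CPM intact and 1.27, 2.37 and 2.47 CPM injured at 1 month. At 8 months the intact libraries held 1.13, 0.649 and 0.821 CPM and the injured ones 1.76, 1.18 and 2.18 CPM, without overlap, as in 9.39% of genes tested. At 12 months the order was the other way, with 2.82, 1.81 and 4.35 CPM intact and 1.82, 0.937 and 1.53 CPM injured, and the groups overlapped by a narrow margin. The averaged difference was -0.10, with a 95% interval of -0.83 to 0.63 (adjusted p = 0.916, edgeR).

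The make-up of the TET family was compared per length within each library, where any scaling common to all genes cancels. Tet3 made up 44.8 to 58.2% of the summed TET level in intact and 62.5 to 79.6% in injured neurons at 1 month. At 8 months it made up 52.4 to 80.6% intact and 80.5 to 87.6% injured, and at 12 months 53.7 to 66.04% intact and 74.9 to 83.9% injured. The groups did not overlap at 1 and 12 months and met at 8 months. The shares rest on 13 to 273 TET counts in an intact and 166 to 538 in an injured library.

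**Figure D3:**
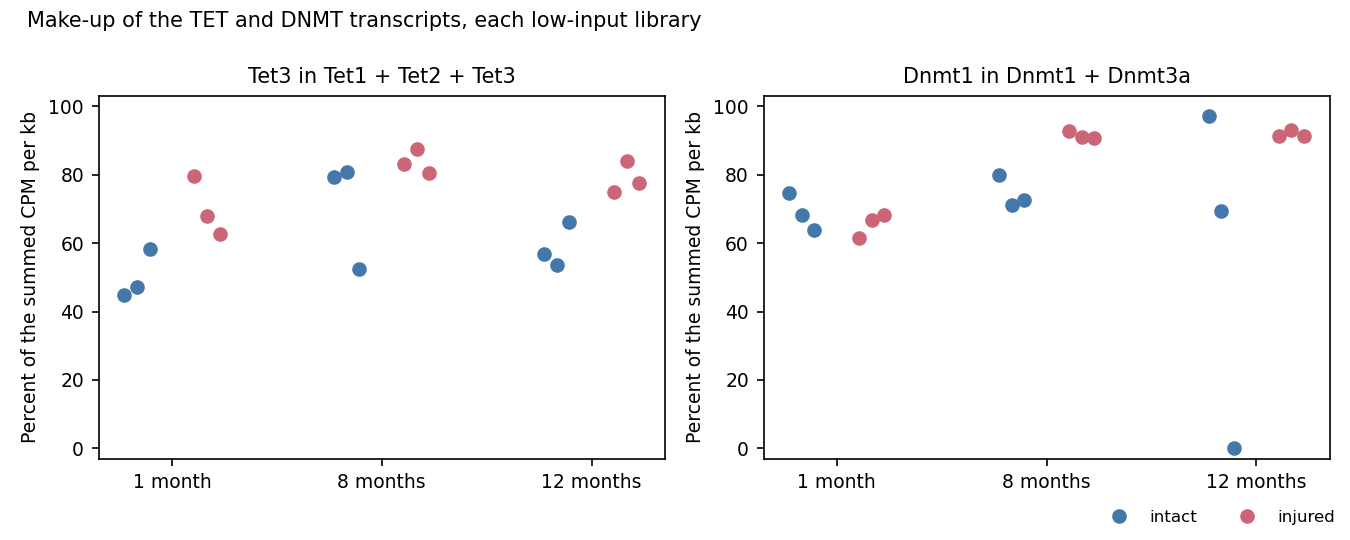
Share of Tet3 in the summed level of Tet1, Tet2 and Tet3, and share of Dnmt1 in that of Dnmt1 and Dnmt3a (vertical axes, percent of the level per kb), in each low-input library by age. The 6 injured libraries of 8 and 12 months hold 90.8 to 92.99% Dnmt1, and the 3 intact libraries of 12 months spread from 0 to 97.2%.

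Dnmt1, the maintenance methyltransferase, lay in the same range in intact and injured neurons at 1 month and higher in injured neurons at the later ages. At 1 month it was at 5.4, 4.85 and 5.48 CPM in intact and 5.26, 5.45 and 6.10 CPM in injured libraries. At 8 months the intact libraries held 13.7, 9.95 and 12.1 CPM and the injured libraries 16, 19.7 and 15.6 CPM. At 12 months the intact libraries held 6.59, 3.61 and 0 CPM, resting on 77, 2 and 0 counts, and the injured libraries 20.97, 25.8 and 17.8 CPM. The injured libraries were all above the intact ones at 8 months, as were those of 9.39% of genes tested, and at 12 months, as were those of 19.2% of genes.

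At 12 months, where 2.99% of genes were called, Dnmt1 was 1 of 6 tested members called, with a log2 difference of 2.60 ± 0.68 (95% interval 1.15 to 4.04, adjusted p = 0.0489, edgeR). That value lies close to the threshold and held in 10 of 28 alternatives, with adjusted p from 0.000385 to 0.692. It was lost without any 1 library of 1 month, any injured library of 8 or 12 months or the second intact 8-month library, at adjusted p up to 0.157. Without the first intact 12-month library the difference was 5.35, and without the third, which held 0 counts, it was 1.91. At 1 month, where 0.232% of genes were called, and at 8 months, where 0.957% were, 0 of the 6 members were called. The differences of Dnmt1 there were 0.10 (95% interval -1.18 to 1.37) and 0.52 (-0.74 to 1.78). The averaged difference of 1.07 ± 0.36 had an adjusted p of 0.0903 and was called in 6 of 28 alternatives, among them those without the first and without the third intact 12-month library (adjusted p = 0.0055 and 0.00941).

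Dnmt3a, which adds new methyl marks, lay lower in injured neurons at 8 months and higher at 12 months, and its average over ages was near 0. At 1 month it was at 4.12, 5.13 and 7.04 CPM intact and 7.44, 6.15 and 6.45 CPM injured, with overlap. At 8 months it was at 7.73, 9.08 and 10.3 CPM intact and 2.87, 4.37 and 3.55 CPM injured, without overlap, in the direction that 4.92% of genes tested took. At 12 months it was at 0.428, 3.61 and 3.48 CPM intact, which are 5, 2 and 16 counts, and 4.46, 4.39 and 3.79 CPM injured, again without overlap but the other way, which 19.2% of genes tested did at that age. The log2 differences were 0.30, -1.32 and 1.02 at 1, 8 and 12 months, of which none was called (adjusted p by edgeR of 1, 0.290 and 0.379). The average was -0.00 with a 95% interval of -0.96 to 0.95.

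In the joint test of injury by age, 0% of all genes were called. Dnmt3a, Dnmt1 and Tdg had unadjusted p of 0.0219, 0.0310 and 0.0468, and adjusted p by edgeR of 0.516, 0.541 and 0.597. Within neurons of the same library, Dnmt1 made up 61.5 to 74.7% of the summed level of Dnmt1 and Dnmt3a per kb at 1 month. At 8 months it made up 71.2 to 80.002% in intact and 90.8 to 92.6% in injured neurons, without overlap. At 12 months it made up 91.4 to 92.99% in injured neurons, inside the intact spread of 0 to 97.2%.

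Tdg, the glycosylase downstream of the TET enzymes, had no called difference. At 1 month it was at 4.35, 4.89 and 6.63 CPM intact and 9.44, 7.56 and 9.10 CPM injured, without overlap, as in 10.5% of genes tested. At 8 months it was at 7.62, 14.7 and 6.08 CPM intact and 4.53, 8.89 and 7.78 CPM injured, with overlap. At 12 months it was at 5.31, 3.61 and 2.17 CPM intact and 9.48, 8.32 and 8.09 CPM injured, without overlap, as in 19.2% of genes tested. The averaged difference was 0.49 ± 0.25 (95% interval -0.03 to 1.01, adjusted p = 0.274, edgeR), with 0.72, -0.42 and 1.18 at the 3 ages.

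Of the 4 members below the filter, 3 had reads, most of them in injured libraries. Dnmt3b, the embryonic writer, had 0 counts in all 18 libraries, which allows up to 0.0126 CPM over the 18 libraries pooled. Dnmt3l had 50 counts in 7 of 9 injured libraries, between 1 and 15 in each, and 1 count in 1 of 9 intact libraries, a ratio of 41.5 (interval from counting error 7.11 to 1671). Dnmt3l was left out of the main test and fitted in the 17 alternatives that let it in, with adjusted p from 0.00902 to 0.0852, and called in 5. With 1 intact count in all, it could pass a filter only through its injured libraries, so these values add no support for a difference. Uhrf1 had 8 counts in 4 injured and 0 in intact libraries, and Apobec3 had 17 counts in 6 injured and 3 in 3 intact libraries. The ratio for Apobec3 was 4.70 (1.36 to 25.05). These intervals cover counting error of reads only, and not the spread between libraries. SMART-seq2 reads carry no molecular identifiers, so reads need not be separate molecules and the intervals can be too narrow. The same holds for the intervals of single-cell ratios below. More genes had counts in injured than in intact libraries at 8 months (15396 to 18326 against 13031 to 14765). The same held at 12 months (18646 to 20128 against 10778 to 15198), while at 1 month the ranges overlapped (17721 to 18757 and 15755 to 18611). Whether this bears on the counts of Dnmt3l, Uhrf1 and Apobec3 was not tested.

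Across ages within a condition, few differences passed the test. In intact neurons 0 of 6 members were called between 8 and 1 month (0.922% of genes tested) or between 12 and 1 month (0.246%). Between 12 and 8 months, where 6.69% of genes were called, 1 of 6 was: Dnmt3a fell by 2.11 ± 0.60 on the log2 scale (adjusted p = 0.0446, edgeR), a call that held in 9 of 27 alternatives. Of the 18 libraries it held without the second or the third intact 12-month library, the first intact 8-month library or the first injured 8-month library, and was lost without any other. Without the first intact 12-month library, with its 5 counts of Dnmt3a, the difference was -1.36 (adjusted p = 0.0880). Tet1 and Tdg differed there by 1.86 and -1.32, with adjusted p of 0.0779 and 0.0870. In injured neurons 0 of 6 were called between 8 and 1 month (0.225% of genes), 12 and 1 month (0.113%) or 12 and 8 months (0.0633%). Among these, Dnmt1 had the largest differences, 1.61 (95% interval 0.31 to 2.90) and 1.94 (0.64 to 3.25) against 1 month, with adjusted p by edgeR of 0.818 and 0.834. Intact and injured Dnmt1 at 1 month lay between 4.85 and 6.10 CPM, and injured Dnmt1 at 8 and 12 months between 15.6 and 25.8 CPM. The 12-month contrasts compare libraries without Y-linked counts with libraries that have them.

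The surrounding pathway was described through 7 lists of genes, counted in the averaged injury difference, where the median over all genes was 0.03. Of the base excision repair genes that act on modified cytosine, 0 of 10 tested were called, with 5 positive and a median of -0.04. Parp1, which senses strand breaks, had the highest level of them, a median of 48 CPM intact and 58.1 injured, and a difference of 0.35 ± 0.19 (adjusted p = 0.305, edgeR). Of the proteins that read methylated CpGs, 1 of 9 was called. It was Zbtb38, a zinc finger protein that binds methylated DNA, with 27.3 CPM intact, 55.3 injured and a difference of 0.87 ± 0.15 (adjusted p = 0.00217).

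Of the 4 genes named Gadd45, whose founding products are stress-induced and have been linked to active demethylation, 2 rose: Gadd45a by 2.11 ± 0.29 and Gadd45g by 1.40 ± 0.26 (log2, adjusted p = 0.000261 and 0.00337, edgeR). Gadd45b was at 0.91 (adjusted p = 0.320). Gadd45gip1, a partner protein that shares the name but not the family, was at -0.88 (adjusted p = 0.0826). Of the methionine and one-carbon cycle, which supplies the methyl donor, 1 of 12 was called. It was Ahcy, which clears the by-product of methylation and rose by 0.88 ± 0.22 (adjusted p = 0.0225), while the list's median was 0.00 and Mat2a, the synthase of the methyl donor, was at 0.09 (adjusted p = 0.738).

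Of the genes for TET cofactors and partners 0 of 13 were called, with a median of 0.01, and their most abundant member, Ogdh, a mitochondrial enzyme that uses the TET cosubstrate, was at -0.12. Of the DNMT partners 0 of 10 were called, with a median of -0.12, and Usp7, a deubiquitinase, was at -0.34. Of the other deaminases 1 of 4 passed the filter, Apobec2, at 3.65 ± 1.35 (adjusted p = 0.138). All named intact and injured levels in these lists are medians over 9 libraries. The median of the 4 Gadd45 genes was 1.15, and no test of a list was made.

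The genes whose log2 CPM ran most like that of Tet3 over the 18 libraries were Ehd1 (Pearson's r = 0.850), Clic4 (0.844) and Flrt3 (0.844). For Dnmt3a they were Zfp715 (0.886), Ssfa2 (0.848) and Prpf38b (0.842). Ehd1 is an endocytic recycling protein, Clic4 an intracellular chloride channel protein, and Flrt3 a membrane protein of neurite growth. Among the members, the correlation was 0.698 between Dnmt1 and Tdg, 0.585 between Dnmt1 and Tet2, and 0.391 between Dnmt1 and Tet3. Tet1 ran against Dnmt1, with -0.631, and against Tdg, with -0.603. These values are descriptions over 18 libraries that share depth, the share of CT010467.1 and the injury contrast, and they were not tested.

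In single cells, each group is 1 sample, since the labels name no animals, and no test between groups was made. Levels are CPM of the counts outside CT010467.1, summed over the cells of a group. Cells held up to 22890735 counts outside spike-ins and CT010467.1, with medians of 291824 in intact and 1033580 in injured cells at 1 month and 7145020 and 3524090 at 1 year. Dnmt1 was found in 76.5% of the 68 cells with counts (95% exact binomial interval 64.6 to 85.9%), Tdg in 75%, Tet3 in 72.1% and Dnmt3a in 70.6%. Tet1 was found in 54.4% and Tet2 in 52.9%, against 16.2% for Apobec3, 10.3% for Dnmt3b, 8.82% for Uhrf1 and 7.35% for Dnmt3l. When 50 cells were thinned to 200000 counts each, leaving out 8, 5, 0 and 6 shallower cells of the 4 groups, the shares were 88% for Dnmt1, 80% for Tdg, 76% for Tet3, 70% for Dnmt3a, 46% for Tet2 and 38% for Tet1.

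Per length, the order in cells was Dnmt1 with 4.65 CPM per kb, Tdg with 4.10, Tet3 with 1.32, Dnmt3a with 1.07, Apobec3 with 0.501, Tet1 with 0.469 and Tet2 with 0.303. The places of Apobec3 and Tet1 rest on few cells, since 1 cell held 331 of the 720 Apobec3 counts and another 609 of the 1713 Tet1 counts. Dnmt1 and Tet3 were found together in 45 of 68 cells, Dnmt1 without Tet3 in 7, Tet3 without Dnmt1 in 4 and neither in 12. Any TET gene had counts in 54 cells and Dnmt1 or Dnmt3a in 56, while 9 cells had none of the 10 members (4, 3, 0 and 2 in the 4 groups). Some cells were nearly empty. The intact 1-month cell 14 had counts of 109 genes and 99.9% spike-in counts, and the injured 1-year cell 10 held 281 counts outside CT010467.1. Shares over the 68 cells include such cells, so a cell without a count need not lack the transcript. Of the 50 thinned cells, 36 held both Dnmt1 and Tet3.

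**Figure D4:**
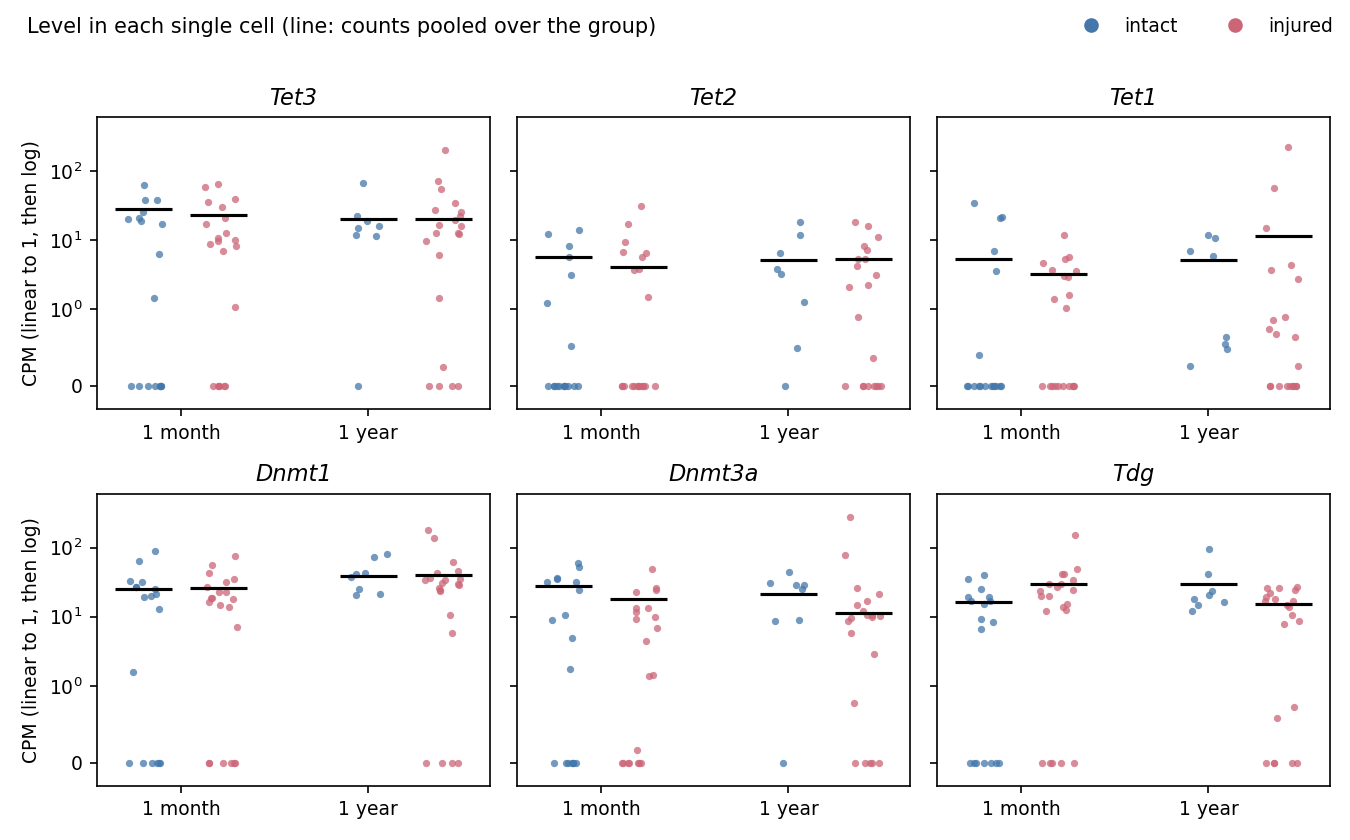
CPM of Dnmt1, Dnmt3a, Tet1, Tet2, Tet3 and Tdg in each single cell (vertical axis, linear to 1 and logarithmic above it) for the 4 groups, with a point per cell and the pooled level of the group as a line. Within every group the cells spread widely, Dnmt1 for example from 0 to 89.2 CPM in intact 1-month cells, and Tet1 reaches 222 CPM in 1 injured 1-year cell.

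At 1 month, injury genes were higher in the pooled injured cells, with Atf3 at 805 against 72.4 CPM and Sprr1a at 1853 against 0.908 CPM in intact cells. These levels rest largely on few cells, since 1 cell gave 49.4% of the injured Atf3 counts and 1 gave 47.6% of those of Sprr1a. The median over cells was 87.3 CPM injured and 35.6 CPM intact for Atf3, and 6.33 and 0 CPM for Sprr1a. Pooled Tet3 stood at 28.2 CPM before and 23.3 CPM after injury, a ratio of 0.829 (interval from counting error 0.762 to 0.902), while the ratio of means over cells, which gives each cell equal weight, was 1.16. The pooled and the per-cell summary of Tet3 thus differed in direction, where the low-input libraries of 1 month differed by 1.33 (log2). Dnmt3a was at 28.05 and 18.1 CPM, a ratio of 0.646 (0.591 to 0.707), and 0.558 over cells, and 1 injured cell gave 44.5% of the injured counts. Dnmt1 was at 24.9 and 25.9 CPM, with a ratio of 1.04, but 0.965 over cells. Tdg was at 16.2 and 30.03 CPM, a ratio of 1.86 (1.69 to 2.05), and 2.21 over cells.

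At 1 year, the injury genes were low in cells labelled as injured, with Atf3 at 80.6 against 62.5 CPM and Sprr1a at 5.4 against 0.178 CPM. The glial transcript Apoe was high in the same cells, at 6903 against 1456 CPM. Tet3 was at 19.97 CPM in the intact cells and at 20.3 CPM in the injured ones, a ratio of 1.01 (0.942 to 1.09) and 1.27 over cells. Dnmt1 was at 38.7 and 40.1 CPM, a ratio of 1.04 (0.981 to 1.09), but 0.877 over cells. The low-input libraries of 12 months differed by 2.60 (log2) in Dnmt1. Dnmt3a was at 21.2 and 11.5 CPM, a ratio of 0.542, but 1.118 over cells. Tdg was at 29.3 and 15.4 CPM, a ratio of 0.526, the other way from 1 month, and 36.7% of the intact counts came from 1 cell. Whether the glial transcript or the low injury genes bear on these ratios was not tested.

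Counts of the rare members, and of Tet1, were concentrated in single cells, some of them poor in neuronal transcripts. The eighth intact 1-year cell held 331 of the 354 Apobec3 counts of its group, at 52.9 CPM, with 78.8 CPM of the neuronal tubulin Tubb3 against a group median of 3986 CPM. It also held all 29 Dnmt3l counts of its group. The immune transcripts Ptprc and Cd74 were at 57.7 and 87.4 CPM in that cell. Of the injured 1-year cells, number 21 held 216 of 245 Uhrf1 counts, with Tubb3 at 408 CPM, and number 18 held 609 of 1063 Tet1 counts, with Tubb3 at 393 and Apoe at 37684 CPM. Number 20 held 118 of 176 Dnmt3b counts, with Tubb3 at 1187 CPM.

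A lower limit of 1000 CPM of Tubb3, chosen after seeing the data, left out 2, 2, 1 and 4 cells of the groups. The 4 include the injured 1-year cell without counts. Leaving these cells out lowered Tet1 in injured 1-year cells from 11.5 to 2.96 CPM and Uhrf1 from 2.66 to 0.356 CPM. Apobec3 fell from 6.29 to 0.460 CPM in intact and from 3.95 to 1.25 CPM in injured 1-year cells. Tet3 was then at 28.3, 23.4, 22.5 and 19.5 CPM in intact and injured cells of 1 month and of 1 year, Dnmt1 at 24.97, 25.9, 34.5 and 32.7 CPM, and Tdg at 16.2, 30.1, 20.9 and 16.6 CPM, so that the gap of Tdg at 1 year narrowed. At 1 month, Dnmt3b, Dnmt3l, Uhrf1 and Apobec3 had no count in any of 18 intact cells, and Dnmt3b in none of 21 injured cells. With exact 95% intervals, 0 cells allow shares of cells with a count of up to 18.5% and 16.1%. These limits do not bound expression, since 8 and 5 of these cells held fewer than 200000 counts.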

How the data were processed

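Per the file headers and the submitters' processing notes, the authors trimmed reads with Trim Galore, aligned them to mm10 with STAR and counted them per gene with featureCounts 1.5.2 on GENCODE M16; the deposited values are raw read counts, with 92 spike-ins. The strand setting is not given in the sources used here. The labels list 136 RNA samples, of which 87 were matched to a column, 18 low-input and 69 single-cell. The other RNA samples share their group and name with a matched sample. Whether the columns include their reads is not stated in the sources used here. The 94 methylation samples were not analysed here, and 0 count columns were left unused.

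Low-input counts of 14212 genes passing edgeR's filter for groups of 3 (53278 listed) went into edgeR 4.0.16 under R 4.3.3 (TMM, quasi-likelihood, 12 residual degrees of freedom, 6 groups), and calls used a Benjamini-Hochberg adjusted p under 0.05. CT010467.1 stayed in the totals. The script was tested on simulated data. Single cells were summed per group, with exact intervals, and thinned to 200000 counts. The members, lists and tests were chosen with earlier results of these data known. All members are named; of each pathway list, called genes (at most 8) and the most abundant gene; and the 3 genes most correlated with each called member and with Dnmt3a.

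Same-numbered intact and injured libraries deviated together at 1 month (correlations of 0.188, 0.309 and 0.478 over 1669 genes of at least 50 CPM) but not at 8 months (-0.530, -0.351, 0.0680) or 12 months (-0.102, -0.0973, 0.0881), and the design had no block. Alternatives were DESeq2 1.42.0, limma-voom 3.58.1, other scalings, filters, covariates and leaving out each library. The log odds covariate, the fit of 1 and 8 months and the Tubb3 limit were added after seeing the data.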

Additional observations from a re-analysis of the deposited data

Results flagged for a closer look

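In the 8 intact 1-year cells, 6 of the 10 genes had a cell whose distance to the next was above Dixon's 95% critical value of 0.526 of the range. The nominal rate of about 1 in 20 is for independent normal values, which counts of 10 genes in the same 8 cells are not. For Dnmt3l and Uhrf1 only 1 cell had counts, so the distance equals the range by construction. Tdg reached 96.7 CPM, Apobec3 52.9 CPM and Dnmt3l 4.63 CPM in the eighth cell, which had 78.8 CPM of Tubb3. Tet3 reached 67.6 CPM in the sixth cell, against 22.3 CPM in the next. Dnmt3b reached 1.55 CPM and Uhrf1 0.858 CPM in other cells.

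Dnmt3a differed by -1.32 (log2) between injured and intact libraries at 8 months and by 1.02 at 12 months, with each injured library on the same side of the intact ones within an age. The joint test of injury by age gave it an adjusted p of 0.516 by edgeR.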

How the results depend on the processing

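The number of the 10 members called in the averaged injury difference, 1, was 6 with scaling to spike-in totals, 3 without a filter on low counts (Tet3, Dnmt1 and Dnmt3l), 2 with DESeq2 or limma-voom, 0 with the share of CT010467.1 as a covariate or with 1 and 8 months only, and 1 to 3 without a replicate. At 12 months it was 1, and 0 with DESeq2 size factors, with only the libraries compared, with either covariate or with the replicate block, 6 with spike-in scaling, 2 with DESeq2 or limma-voom, and 0 to 3 without a replicate. Over the 6 age contrasts, where a gene counts once for each contrast that calls it, the calls numbered 1, and 0 with DESeq2 size factors, 7 with spike-in scaling, 5 with DESeq2, 2 with limma-voom, with only the libraries compared or with the log odds covariate, and 0 to 4 without a replicate. At 1 month, 8 months and in the interaction it was 0 throughout.

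Spike-in scaling moved the median averaged difference of all genes from 0.03 to 2.90 (log2). The average of Dnmt3a turned positive in 18 of 28 alternatives, with 3.04 under spike-in scaling, 0.027 without CT010467.1 in the totals, 0.021 without the filter, 0.018 with DESeq2, 0.38 with limma-voom, 1.22 and 1.04 with the share and log odds covariates, 0.086 with the replicate block, and -0.25 to 0.42 without a replicate. At 8 months its spike-in value was 0.69. Tet1 was at 2.83 with spike-in scaling, 0.42 with 1 and 8 months only and -0.17 to 0.018 without a replicate. Tet2 was at -0.14 with 1 and 8 months only, and Tdg at -0.18 with the share covariate. Tet3 kept its direction in all 28. With the share covariate 11 genes were called in all, with the log odds 233, with 1 and 8 months 183 and without either 878. In single cells, 61 of 120 pooled levels and 11 of 80 shares moved beyond their counting interval. Having 3 libraries a group, and 0 to 77 counts of Dnmt1 in the intact 12-month ones, limits what these values can show.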
